A study of Homo sapiens with 26 samples.

Results

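The transcripts of PER1, PER2, PER3, CRY1 and CRY2, the repressors of the circadian clock, were followed in U2OS cells, an established human osteosarcoma line. They were found by their symbols and are 5 of the 19704 gene symbols in the table and 5 of the 11838 tested, each on 1 row. The cells carried a luciferase reporter of the clock gene Arntl (Arntl::dLUC) in both groups. One group of 13 libraries came from cells in neutral medium (pH 7.4) and the other group of 13 from cells in acidic medium (pH 6.3), with 1 library per medium every 4 h from 4 to 52 h. Both media were bicarbonate-free DMEM with PIPES and HEPES as buffers, serum, and 0.1 µM dexamethasone, a glucocorticoid that synchronizes the clocks of the cells when it is added. The plates were sealed and kept without added carbon dioxide. Plates for 28 to 52 h were started a day before those for 4 to 24 h, and plates a day apart in age were harvested side by side, so the hours up to 24 h and those from 28 h on came from different sets of plates. Each hour was sampled once per medium. The SDs below are therefore spreads over 13 hours that hold the time course itself. The p-values for differences in level between media measure the difference against its own variation over hours. Those for 24 h waves and their difference measure it against the scatter around wave and trend in 1 fit of both media.

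In the mammalian clock, CLOCK and ARNTL (BMAL1) form an activator that binds E-boxes in the promoters of the PER and CRY genes. The PER and CRY proteins build up over hours, enter the nucleus together and block that activator, which lowers their own transcription until they are degraded. PER1 and PER2 are also switched on directly by outside signals such as glucocorticoids and cAMP, while CRY1 is the strong late repressor and CRY2 its weaker paralog. D-boxes, bound by DBP, TEF and HLF and by the repressor NFIL3, are a second control element of this family.

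The genes lie on 5 chromosomes. In GENCODE 29 (GRCh38), PER1 (ENSG00000179094) spans 8140472 to 8156506 of chromosome 17 on the minus strand. PER2 (ENSG00000132326) spans 238244038 to 238290102 of chromosome 2 on the minus strand, and PER3 (ENSG00000049246) spans 7784320 to 7845177 of chromosome 1 on the plus strand. CRY1 (ENSG00000008405) spans 106991364 to 107093829 of chromosome 12 on the minus strand, and CRY2 (ENSG00000121671) spans 45847118 to 45883248 of chromosome 11 on the plus strand. All are protein coding, with up to 23 exons in a transcript of each PER gene, 13 in CRY1 and 12 in CRY2. The GC content of the longest transcript was 62.7% for PER1, 57.0% for CRY2, 52.4% for PER2, 46.2% for PER3 and 37.2% for CRY1, against a median of 47.6% over the genes tested. PER3 shares 868 exon bases with UTS2 on the other strand, which was at most at 0.208 FPKM. PER2, PER3 and CRY1 also share 188, 482 and 94 exon bases with non-coding genes on the other strand, whose reads cannot be told apart from theirs if strand was not used in counting. PER1 shares 78 exon bases with MIR6883 and 30 with the protein-coding AC129492.3, both on its own strand, where strand cannot separate reads.

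Promoters of the 5 genes are shown because 4 of these 5 transcripts rose in acid and the clock elements of the family lie there. RefSeq (GRCh38.p14) gave 7 start sites for the 5 genes, and windows of 300 bases, from 250 before to 50 after each start, were searched on both strands. The E-box was CACGTG, the E-prime box CACGTT, and the D-box TTATGTAA or TTACGTAA. For each gene the window that held a match is printed, 5′ to 3′ along the gene, ending at the base before the start (for PER2 5 bases after it), with matches in capitals. The windows are PER1 at chr17:8152405-8152654 (minus strand), PER2 at chr2:238288606-238288860 (minus), PER3 at chr1:7784041-7784290 (plus), CRY1 at chr12:107093550-107093799 (minus) and CRY2 at chr11:45847225-45847474 (plus).
PER1: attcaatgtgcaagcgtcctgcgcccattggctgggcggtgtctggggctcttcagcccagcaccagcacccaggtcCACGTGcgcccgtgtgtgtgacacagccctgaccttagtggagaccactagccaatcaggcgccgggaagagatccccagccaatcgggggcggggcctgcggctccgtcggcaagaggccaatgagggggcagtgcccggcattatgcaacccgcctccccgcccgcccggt
PER2: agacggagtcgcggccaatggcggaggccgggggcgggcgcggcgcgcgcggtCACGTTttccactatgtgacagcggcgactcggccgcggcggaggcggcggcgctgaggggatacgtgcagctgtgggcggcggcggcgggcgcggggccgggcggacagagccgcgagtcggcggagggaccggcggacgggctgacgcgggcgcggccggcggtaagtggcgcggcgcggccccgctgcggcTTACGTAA
PER3: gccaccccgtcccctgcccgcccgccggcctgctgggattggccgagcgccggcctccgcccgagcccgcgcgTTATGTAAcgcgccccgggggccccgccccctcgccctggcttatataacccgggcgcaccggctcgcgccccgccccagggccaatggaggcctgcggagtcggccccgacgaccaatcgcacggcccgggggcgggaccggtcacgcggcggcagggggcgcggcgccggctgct
CRY1: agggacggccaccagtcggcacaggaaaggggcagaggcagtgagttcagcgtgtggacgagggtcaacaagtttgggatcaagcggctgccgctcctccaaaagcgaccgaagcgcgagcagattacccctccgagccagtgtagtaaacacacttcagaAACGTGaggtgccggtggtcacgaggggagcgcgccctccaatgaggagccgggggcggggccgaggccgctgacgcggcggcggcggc
CRY2: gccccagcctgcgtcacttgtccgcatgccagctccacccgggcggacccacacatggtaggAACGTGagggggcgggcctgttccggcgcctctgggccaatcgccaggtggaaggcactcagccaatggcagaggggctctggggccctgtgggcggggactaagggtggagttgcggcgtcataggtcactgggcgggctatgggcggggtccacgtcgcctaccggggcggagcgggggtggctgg

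PER1 held 1 E-box, with its first base at position −173 from the start. PER2 held 1 E-prime box at −197, and 1 D-box of the second form that spans the start. PER3 held 1 D-box of the first form at −177, and no E-box. CRY1 and CRY2 each held 1 E-prime box that reads AACGTG along the gene, at −89 and −188. At least 1 of the 4 forms was present in 13.1% of 35116 RefSeq windows of this length and at 15.6% of 27305 genes. By form, CACGTG was in 7.26% of windows, CACGTT in 5.34%, TTATGTAA in 0.886% and TTACGTAA in 0.125%. The other windows of PER3 and CRY2 held none of the 4. A cAMP response element (TGACGTCA, in 1.85% of windows) and a full palindromic glucocorticoid response element (in 0.00285%) had no match in the 7 windows of these genes, which says only that these letters are not there. A match describes the letters and is no evidence of binding.

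Values are FPKM as deposited, that is, fragments per transcript length and library size, so levels can be compared between genes. They are shares of the RNA of a culture, in which fewer expressing cells and less RNA per cell cannot be told apart. Depth, estimated from the spacing of low values, was 19.55 to 35.74 M fragments (M for mega) in 24 libraries, 9.70 M at pH 7.4 at 12 h and 11.1 M at pH 6.3 at 8 h. These are the smallest depths at which low values come near whole fragments. A larger multiple could not be told apart, and numbers of fragments would grow with it. In 4 libraries the deviations of genes from their means followed GC content across genes, with r = 0.63 at pH 7.4 at 28 h, −0.53 at 44 h, −0.62 at 48 h, and 0.55 at pH 6.3 at 20 h. Results below are given without the hours of 4 libraries (those of low depth and those at pH 7.4 at 28 h and pH 6.3 at 20 h), and without the hours of all 6, where that changes them. Of 12 mesenchymal and bone markers 10 passed the filter of a mean of 1 FPKM, with summed levels of 4080 to 6050 FPKM at pH 7.4 and 2770 to 4290 FPKM at pH 6.3. COL1A2 was at 0.858 FPKM on average, and TWIST1 at most at 0.109 FPKM. Of 10 epithelial markers 5 passed, led by KRT8 and KRT18 (sums of 162 to 317 and 150 to 329 FPKM), with CLDN3 at 0. Of 10 leukocyte markers LCP1 and CD68 passed (sums of 14.7 to 41.0 and 8.67 to 19.2 FPKM). The part of these marker differences in the results was not tested.

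**Figure D1:**
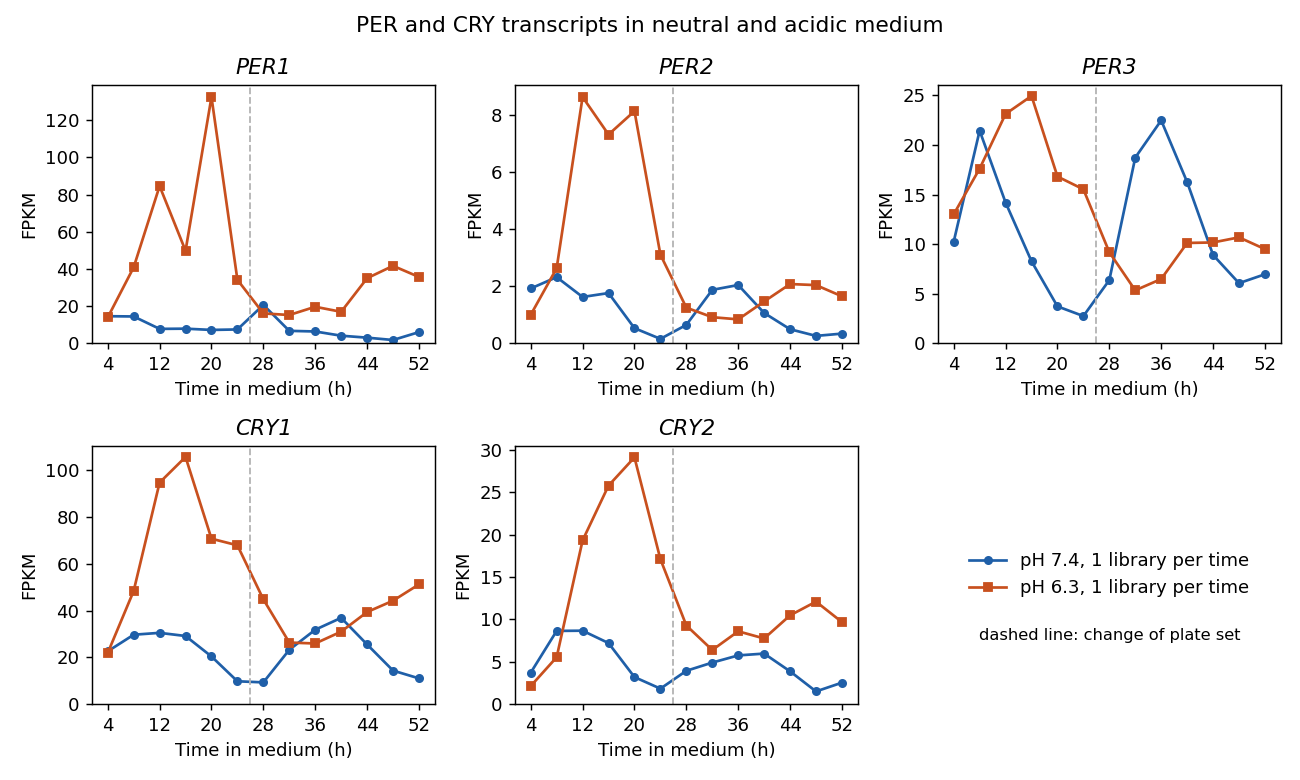
FPKM (vertical axis, a separate linear scale from 0 for each gene) against hours in medium for pH 7.4 (circles) and pH 6.3 (squares), with 1 library per point. The acid curves of all 5 genes have their highest points between 12 and 20 h, at 132 FPKM for PER1 and 106 FPKM for CRY1, and PER3 at pH 7.4 peaked at 21.4 FPKM at 8 h and 22.5 FPKM at 36 h.

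In neutral medium CRY1 was the most abundant of the 5 and PER2 by far the least. CRY1 averaged 22.7 ± 9.14 FPKM, PER3 11.3 ± 6.66, PER1 8.39 ± 5.25, CRY2 4.76 ± 2.38 and PER2 1.16 ± 0.784 FPKM (SD over 13 hours). The means of PER3 and PER1, next to each other in this order, lay within 1 SD of each other, as did those of PER1 and CRY2. By hour, PER3 and PER1 changed places, while PER1 was above CRY2 at all hours but 12, 40 and 44 h. Among the 11838 genes tested, with a median of 13.7 FPKM, CRY1 stood at percentile 63.8 and PER2 at 2.09. In acid the order was CRY1 at 51.8 ± 26.3, PER1 at 41.3 ± 33.5, PER3 at 13.3 ± 6.02, CRY2 at 12.6 ± 8.03 and PER2 at 3.16 ± 2.86 FPKM. The means of CRY1 and PER1 lay within 1 SD of each other there, as did those of PER3 and CRY2. By hour, CRY1 was above PER1 in acid at all hours but 20 h (70.8 against 132 FPKM), while PER3 and CRY2 changed places. These SDs hold the time course, so they are no error for comparing genes, and the order of genes was not tested.

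PER1 took up a larger share of the PER transcripts in acid, and the split between CRY1 and CRY2 was nearly the same. Summed PER levels averaged 20.8 ± 9.25 FPKM at pH 7.4 and 57.7 ± 40.0 FPKM at pH 6.3. PER1 made up 41.4% ± 19.6 of that sum at pH 7.4 and 68.5% ± 9.16 at pH 6.3, and PER3 53.5% ± 18.8 and 26.6% ± 9.06. The share of PER2 was 5.13% ± 2.37 and 4.94% ± 1.65. Summed CRY levels averaged 27.4 ± 11.1 and 64.3 ± 33.3 FPKM, of which CRY1 was 82.6% ± 5.26 and 81.2% ± 5.37. The ratio of CRY to PER transcripts was 1.45 ± 0.575 at pH 7.4 and 1.24 ± 0.385 at pH 6.3, a difference within the spread over hours. These shares and ratios are descriptions, with no test.

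PER1, the PER gene most directly induced by outside signals, had the largest difference of the 5. At pH 7.4 it ran from 1.87 FPKM at 48 h through a median of 7.29 to 20.7 FPKM at 28 h, and at pH 6.3 from 14.0 FPKM at 4 h through a median of 35.1 to 132 FPKM at 20 h. Both media began alike, at 14.7 and 14.0 FPKM at 4 h. PER1 at pH 7.4 was then at 14.5 FPKM at 8 h and 7.85 FPKM at 12 h, while at pH 6.3 it stood at 40.9 FPKM and 84.6 FPKM at these hours. The highest acid value was 9.46 times that at 4 h. From 28 to 40 h PER1 in acid lay between 15.3 and 19.7 FPKM, and from 44 to 52 h between 35.1 and 41.7 FPKM. It was higher in acid at 11 of 13 hours. Of all genes tested, 18.5% were higher in acid at 11 or more hours, 11.7% at 12 or more and 4.43% at all 13. For PER1, 8 of the 13 acid values lay above the highest neutral value.

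PER2, the partner of PER1 in the repressor complex, was low throughout. At pH 7.4 it ran from 0.162 FPKM at 24 h through a median of 1.07 to 2.32 FPKM at 8 h, and at pH 6.3 from 0.845 FPKM at 36 h through a median of 2.04 to 8.63 FPKM at 12 h. The lowest value rests on an estimated 29 fragments, so counting noise is larger here than for the other 4 genes. From 12 to 20 h acid held PER2 at 7.31 to 8.63 FPKM while the neutral values lay between 0.536 and 1.77 FPKM. The direction was the opposite at 4, 32 and 36 h, with 1.93 against 1.00, 1.88 against 0.920 and 2.05 against 0.845 FPKM. In all, 10 of 13 hours were higher in acid, and 5 acid values lay above the highest neutral one.

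PER3, the third PER paralog, was higher in acid at some hours and lower at others. At pH 7.4 it ran from 2.76 FPKM at 24 h through a median of 8.91 to 22.5 FPKM at 36 h, with a first peak of 21.4 FPKM at 8 h. At pH 6.3 it ran from 5.35 FPKM at 32 h through a median of 10.7 to 24.9 FPKM at 16 h. Acid values were 5.62 times the neutral ones at 24 h (15.5 against 2.76 FPKM) and 0.289 times at 36 h (6.49 against 22.5 FPKM). The second neutral peak, 18.7 to 22.5 FPKM at 32 and 36 h, thus faced the lowest acid values of the course. The groups overlapped widely, with 2 acid values above the highest neutral one.

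CRY1, the main CRY transcript here, reached higher values in acid and was still high there at 24 h. At pH 7.4 it ran from 9.35 FPKM at 28 h through a median of 23.3 to 36.9 FPKM at 40 h, and at pH 6.3 from 21.9 FPKM at 4 h through a median of 44.9 to 106 FPKM at 16 h. The start was alike, with 22.6 and 21.9 FPKM at 4 h. Acid values were at 94.8 FPKM at 12 h and still at 68.0 FPKM at 24 h, where the neutral value was 9.82 FPKM. CRY1 was slightly lower in acid at 36 and 40 h, with 26 against 31.9 and 31.0 against 36.9 FPKM. Acid exceeded neutral at 10 of 13 hours, and 9 acid values lay above the highest neutral one.

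CRY2, the less abundant CRY paralog, began lower in acid and ended higher. At pH 7.4 it ran from 1.51 FPKM at 48 h through a median of 3.94 to 8.68 FPKM at 12 h, and at pH 6.3 from 2.15 FPKM at 4 h through a median of 9.70 to 29.1 FPKM at 20 h. At 4 h the acid value was 0.576 times the neutral one, with 2.15 and 3.72 FPKM, and at 8 h 0.641 times, with 5.55 and 8.65 FPKM. At 24 h it was 9.30 times as high, with 17.1 and 1.84 FPKM. The highest acid value of CRY2 was 13.6 times its 4 h value, against 4.82 times for CRY1, 8.60 times for PER2 and 1.92 times for PER3. From 12 h on every acid value of CRY2 was above the neutral value of the same hour, and 8 acid values lay above the highest neutral one.

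The first comparison asked whether the mean level over the course differed between media. In limma's moderated test of log2(FPKM + 1) with the hour as a block, 4 of the 5 genes were higher in acid. Of all genes tested, 59.7% passed an adjusted p below 0.05, 22.4% as higher and 37.3% as lower. PER1 differed by 2.05 (SE 0.33, adjusted p = 6.68e-05), CRY1 by 1.12 (SE 0.25, adjusted p = 0.000964), CRY2 by 1.12 (SE 0.27, adjusted p = 0.00212) and PER2 by 0.78 (SE 0.26, adjusted p = 0.0153). PER3 had a difference of 0.31 (SE 0.28, adjusted p = 0.353). The median over the 5 was 1.12, against −0.12 over all genes tested, and PER1 stood at percentile 99.8 of all differences. An exact two-sided sign-flip permutation test of the 13 within-hour differences gave p = 0.000977 for PER1, 0.00342 for CRY1, 0.00439 for CRY2, 0.0225 for PER2 and 0.347 for PER3. It is exact only if the hours are independent. Limma's test and the tests of pairs below also take the hours as independent. Neighbouring hours could run alike, as PER3 did at 1.48, 1.91 and 2.14 (16 to 24 h) and −1.63 and −1.65 (32 and 36 h). How far this changes the p-values was not tested.

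The calls of PER1 and CRY2 held without the hours of the 4 or the 6 libraries, that of CRY1 without the 4 only, and that of PER2 in neither case. Without the 4, PER2 differed by 0.57 (adjusted p = 0.0972), and without the 6 by 0.40 (adjusted p = 0.321). Without the 6, CRY1 differed by 0.89 (adjusted p = 0.0701). At a pseudocount of 0.1 in place of 1 the difference of PER2 was 1.27, because the log scale with 1 added compresses low values. Correction for GC content left all 4 calls in place and moved the median of all genes from −0.12 to −0.01.

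**Figure D2:**
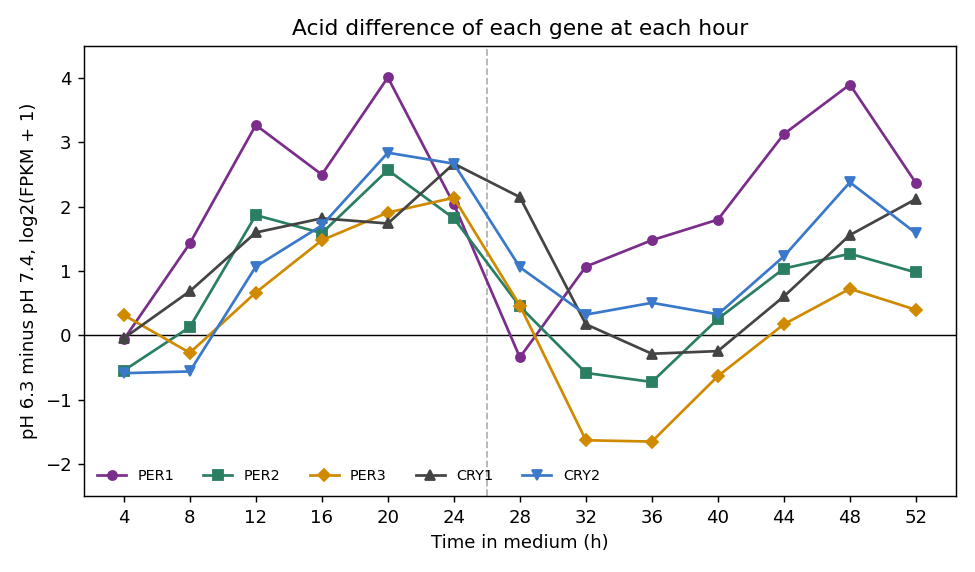
Difference between media, pH 6.3 minus pH 7.4, in log2(FPKM + 1) (vertical axis) against hours in medium, with 1 line per gene and a dashed line where the plate set changes. The differences lie between 1.74 and 4.01 at 20 h and between −1.65 and 1.48 at 36 h, and all are positive from 44 to 52 h.

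The difference of each gene varied from hour to hour, as the plot of differences by hour shows. At 4 h it lay between −0.59 for CRY2 and 0.32 for PER3. At 20 h it was 4.01 for PER1, 2.84 for CRY2, 2.57 for PER2, 1.91 for PER3 and 1.74 for CRY1. At 36 h it was −1.65 for PER3, −0.72 for PER2 and −0.28 for CRY1, against 0.51 for CRY2 and 1.48 for PER1. At 48 h all 5 were positive again, from 0.72 for PER3 to 3.90 for PER1. The hours 20 and 48 include 1 library each with a strong GC trend. After correction for GC content the differences of PER1 at these hours were 3.42 and 2.86, and those of PER3 at 32 and 36 h −1.54 and −1.53.

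The early and late sets of plates were also read apart. In the 4 to 24 h plates, 5 of 5 genes were higher in acid in limma's test, where 40% of all genes tested passed, 11.9% as higher and 28% as lower. PER1 differed by 2.20 (SE 0.49), CRY1 by 1.41 (SE 0.36), PER2 by 1.24 (SE 0.35), CRY2 by 1.19 (SE 0.41) and PER3 by 1.04 (SE 0.35), with adjusted p of 0.00289, 0.00605, 0.0121, 0.0310 and 0.0271. Without the hours of the 4 or the 6 libraries 3 hours are left in this set, and 0 of 5 passed in limma's test without either. The differences without the 4 were 0.95 for PER2, 1.26 for CRY2, 1.31 for PER3, 1.48 for CRY1 and 1.49 for PER1 (adjusted p from 0.0809 to 0.193).

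In the 28 to 52 h plates 3 of 5 passed, where 58.6% of all genes passed, 25.2% as higher and 33.4% as lower. PER1 differed by 1.91 (SE 0.46, adjusted p = 0.00206), CRY2 by 1.06 (SE 0.38, adjusted p = 0.0251) and CRY1 by 0.87 (SE 0.33, adjusted p = 0.0334). PER2 had a difference of 0.38 (SE 0.33, adjusted p = 0.329) and PER3 of −0.31 (SE 0.32, adjusted p = 0.430). Without the hours of the 4 libraries PER1 and CRY2 passed and CRY1 had 0.65 (adjusted p = 0.140), and without the 6 PER1 alone passed, with 1.68 (adjusted p = 0.00548).

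The change of the difference from the 4 to 24 h plates to the 28 to 52 h plates was tested on its own. It passed for 0 of 5 genes in limma's test, and for 17.1% of all genes (10.5% higher, 6.56% lower), and at an unadjusted p below 0.05 for 1 of 5, PER3, and for 3804 of all 11838 genes. For PER3 it was −1.35 (SE 0.48, adjusted p = 0.0622), for PER2 −0.86 (SE 0.48, adjusted p = 0.237), for CRY1 −0.55 (SE 0.49, adjusted p = 0.468), for PER1 −0.29 (SE 0.67, adjusted p = 0.813) and for CRY2 −0.13 (SE 0.56, adjusted p = 0.905). PER3 passed after correction for GC content, with −1.40 (adjusted p = 0.0395), and when 8, 28 or 48 h was left out, at adjusted p = 0.0411, 0.0455 and 0.0409. The span of hours and the set of plates cannot be told apart here.

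Whether one repressor gene moved more than another was tested in 10 pairs, on the 13 differences between their within-hour log2 differences, with an exact two-sided sign-flip permutation test and Benjamini-Hochberg adjustment over the 10. PER1 moved more than PER2 by 1.27 ± 0.902 (SD over 13 hours; adjusted p = 0.00814), with the same sign at 12 of 13 hours. It moved more than PER3 by 1.73 ± 1.37 (adjusted p = 0.00814, 10 of 13 hours) and more than CRY2 by 0.93 ± 1.02 (adjusted p = 0.0190, 11 of 13 hours). PER3 moved less than CRY1 by 0.80 ± 0.699 (adjusted p = 0.00814) and less than CRY2 by 0.81 ± 0.860 (adjusted p = 0.0171), each at 11 of 13 hours. PER2 exceeded PER3 by 0.46 ± 0.594 (adjusted p = 0.0313, 10 of 13 hours), a call lost without the hours of the 4 libraries (0.42, adjusted p = 0.104) and without any 1 of 8 single hours (12, 20, 32, 36, 40, 44, 48 or 52 h). The difference of PER1 from CRY1 was 0.93 ± 1.42 (adjusted p = 0.0555), and it passed at a pseudocount of 0.1, after correction for GC content, without the hours of the 4 libraries, and without the 24 or 28 h pair. CRY1 and CRY2 had equal mean differences, −0.00 ± 0.757 apart (adjusted p = 0.996). PER2 differed from CRY1 by −0.34 ± 0.710 (adjusted p = 0.120) and from CRY2 by −0.34 ± 0.631 (adjusted p = 0.0922). The pair of PER2 and CRY2 passed without the hours of the 4 libraries (−0.56, adjusted p = 0.0293) and when 8 or 12 h was left out (adjusted p = 0.0398 and 0.0350). At a pseudocount of 0.1 the mean differences of PER2 and CRY2 were 1.27 and 1.28, −0.01 apart (adjusted p = 0.966).

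**Figure D3:**
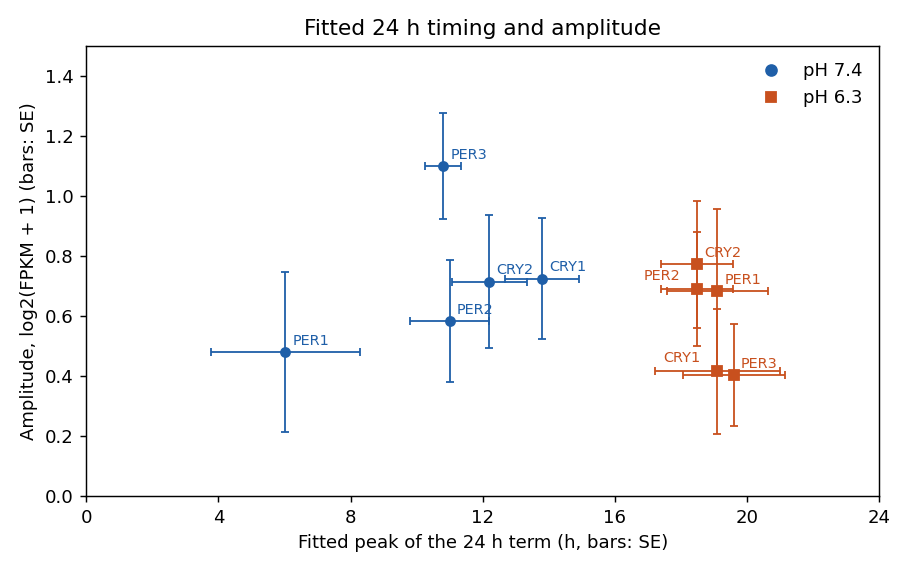
Amplitude of the fitted 24 h term in log2(FPKM + 1) (vertical axis) against its peak hour (horizontal axis) for each gene at pH 7.4 (circles) and pH 6.3 (squares), with bars for the SE. The neutral peaks spread from 6.03 h for PER1 to 13.8 h for CRY1, and the acid peaks lie between 18.5 and 19.6 h.

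The second comparison concerned timing. A 24 h wave with a linear trend was fitted for each medium in one limma fit. At pH 7.4 the fitted peaks were at 6.03 h for PER1 (SE 2.25), 10.8 h for PER3 (SE 0.54), 11 h for PER2 (SE 1.20), 12.2 h for CRY2 (SE 1.13) and 13.8 h for CRY1 (SE 1.12). Those of PER3, PER2 and CRY2 overlap within their SEs, and that of PER1 lay at 3.78 h with a period of 26 h and at 7.95 h with one of 22 h. The amplitude was 1.10 for PER3 (SE 0.17, adjusted p = 0.0246), which alone passed, 1 of 5 where 0.0422% of all genes passed. It was 0.72 for CRY1 (SE 0.20), 0.71 for CRY2 (SE 0.22), 0.58 for PER2 (SE 0.20) and 0.48 for PER1 (SE 0.27), each with an adjusted p of 0.999. At an unadjusted p below 0.05, 4 of the 5 (not PER1) and 443 of all 11838 genes were reached. The call of PER3 was lost with no trend, with a period of 22 h, with each medium fitted alone, after quantile normalization, without the 4 libraries, and without any 1 of the 8, 20, 24, 28, 32, 36, 40 or 48 h pairs, at amplitudes of 0.82 to 1.16. ARNTL, the activator that these proteins repress, peaked at 20.9 h (SE 0.43) with an amplitude of 0.88 (adjusted p = 0.00282).

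At pH 6.3 the fitted peaks of all 5 fell within 18.5 to 19.6 h, with SEs of 1.09 to 1.89 h. Without the 4 h pair they were at 19.8 h for PER2, 20.3 h for CRY2, 20.5 h for PER3, 20.8 h for PER1 and 21.8 h for CRY1. Amplitudes were 0.77 for CRY2 (SE 0.21), 0.69 for PER2 (SE 0.19), 0.68 for PER1 (SE 0.28), 0.42 for CRY1 (SE 0.21) and 0.40 for PER3 (SE 0.17). That of PER1 was 0.38 without the 20 h pair, and with a period of 22 h the amplitudes of PER1, PER3 and CRY1 were 0.40, 0.24 and 0.22. In limma's test 0 of 5 passed (adjusted p from 0.542 to 0.558), and 0% of all genes passed. At an unadjusted p below 0.05 there were 2 of 5, CRY2 and PER2, and 1083 of all genes. The difference of the waves between media passed for 0 of 5 and for 0.0169% of all genes in limma's test. The genes that passed were ARNTL (1.47, SE 0.155, adjusted p = 0.000144) and TEF (1.92, SE 0.28, adjusted p = 0.0162). In acid ARNTL had its fitted peak at 8.36 h (SE 0.65), with an amplitude of 0.59 (adjusted p = 0.542). Of the 5, 4 (not CRY1) had an unadjusted p below 0.05 for the difference of waves, as did 1098 of all 11838 genes. PER3 had the largest of these differences among the 5, 1.40 (SE 0.25, adjusted p = 0.0966). With a period of 26 h, PER2 and PER3 passed it (adjusted p = 0.0382 and 9.15e-05), and PER3 also without the 52 h pair (adjusted p = 0.0260).

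Repetition after a day was read directly from the values, as the correlation between each hour and the hour 24 h later over 7 such pairs. These pairs join the 2 sets of plates, except for the pair of 28 and 52 h, which lies within 1 set. They share no library except for the pairs that meet at 28 h. At pH 7.4 r was 0.88 for CRY2, 0.79 for PER2, 0.72 for PER3, 0.66 for CRY1 and 0.60 for PER1. At pH 6.3 it was 0.26, −0.00, −0.26, −0.51 and 0.09 in the same order. ARNTL gave 0.89 and 0.74. With 7 points each, these values are descriptions.

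Within a medium the genes followed each other over the 13 hours to different degrees, as a description of libraries that share depth and composition. At pH 7.4 r was 0.84 between PER2 and CRY2, 0.82 between PER2 and PER3 and 0.77 between CRY1 and CRY2, but 0.08 between PER1 and PER3 and −0.14 between PER1 and CRY1. At pH 6.3 r was 0.91 between PER2 and CRY1, 0.90 between PER1 and PER2 and 0.80 between PER1 and CRY1, with the lowest value, 0.50, between PER3 and CRY2. In a comparison with the 8887 genes that averaged 5 FPKM or more, those most like each member over the 26 libraries were KRT81, DEDD2 and HYOU1 for PER1 (r of 0.94 to 0.95). For PER2 they were TEF, SLC30A1 and SOX13 (0.81 to 0.86), and for PER3 TEF, DBP and SLC30A1 (0.66 to 0.88). For CRY1 they were MXI1, MTHFD1L and MTURN (0.81 to 0.84), and for CRY2 NDRG1, SYNE1 and FBXL12 (0.85 to 0.86). Over the 13 neutral libraries alone the 2 most alike were TRMT1 and IFRD2 for PER1, TEF and CIPC for PER2, SGK1 and TEF for PER3, GYG1 and TRIM4 for CRY1, and ADCK3 and EXO5 for CRY2 (0.82 to 0.98). Both neutral neighbours of PER1 were GC-rich, with 59.2% for TRMT1 and 60.6% for IFRD2.

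**Figure D4:**
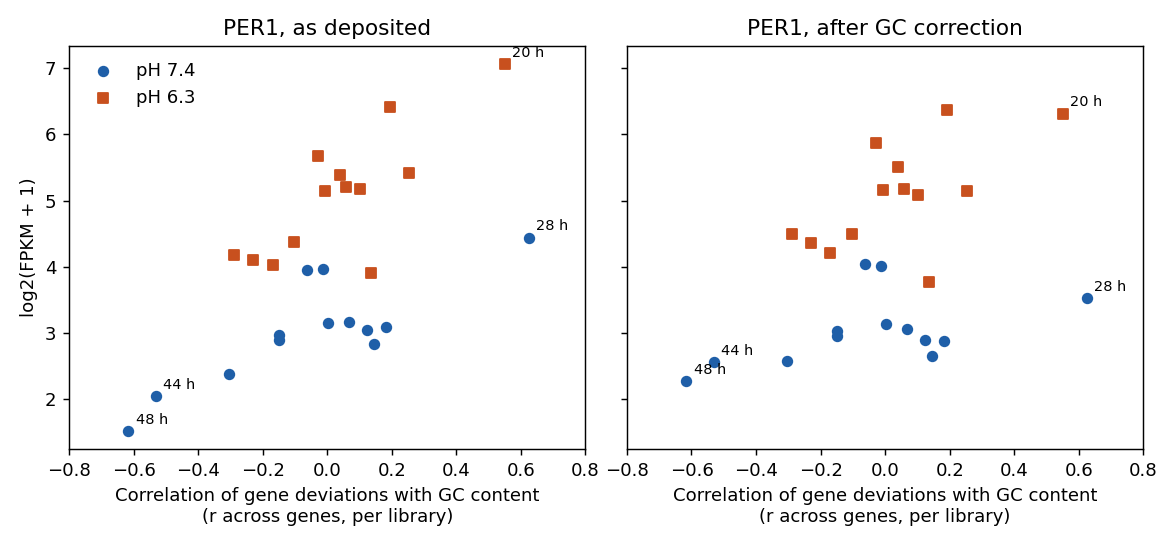
PER1 in log2(FPKM + 1) (vertical axis) against the correlation of gene deviations with GC content in each library (horizontal axis), as deposited (left) and after GC correction (right), for pH 7.4 (circles) and pH 6.3 (squares). Labelled hours have a correlation beyond 0.5 in size. The neutral 28 h and 48 h values move from 20.7 and 1.87 FPKM to 10.5 and 3.83 FPKM.

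PER1 had the highest GC content of the 5, and its level moved with the GC trend of the libraries. Over the 13 libraries of a medium r between its log2 level and that trend was 0.82 at pH 7.4 and 0.79 at pH 6.3. It was 0.49 and 0.61 after correction for GC content, against −0.47 and 0.38 for CRY1 as deposited. The neutral value at 28 h, the highest of the neutral course, went from 20.7 to 10.5 FPKM with the correction, and that at 48 h, the lowest, from 1.87 to 3.83 FPKM. The acid value at 20 h went from 132 to 78.6 FPKM. With the correction, the difference at 28 h changed from −0.34 to 0.83, PER1 was higher in acid at 12 of 13 hours, and its mean difference was 2.03.

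Beyond the 5 repressors, calls among the other core clock genes went in both directions. Of 16 listed, 12 passed the filter, 4 rose, 3 fell and 5 did not pass, with a median difference of 0.34 against −0.12 over all genes, of which 22.4% rose and 37.3% fell. The Arntl repressor NR1D1 rose by 1.83 (SE 0.40), its paralog NR1D2 by 0.88 (SE 0.26), the activator RORA by 1.26 (SE 0.12) and NFIL3 by 0.63 (SE 0.20). CLOCK fell by 0.52 (SE 0.11), ARNTL2 fell by 0.64 (SE 0.10) and BHLHE41, a repressor at E-boxes, fell by 0.57 (SE 0.17). Over the course ARNTL had −0.62 (adjusted p = 0.0506), and BHLHE40, NPAS2, DBP and TEF did not pass either, with differences of −0.23 to 0.47. CIART, HLF and RORB were among those below the filter. Without the hours of the 4 libraries NR1D2 (0.75, adjusted p = 0.0522) and BHLHE41 (−0.42, adjusted p = 0.0534) did not pass, nor did they without the 6. BHLHE40 passed as higher with upper-quartile scaling, quantile normalization, correction for GC content and without the hours of the 4 libraries, by 0.41 to 0.56. By plate set, 5 of the 12 rose and 3 fell in limma's test within 4 to 24 h (11.9% and 28% of all genes). There DBP (1.23, adjusted p = 0.00274) and TEF (1.32, adjusted p = 0.0335) rose and ARNTL fell (−1.12, adjusted p = 0.021). Within 28 to 52 h 3 rose and 3 fell (25.2% and 33.4% of all genes), without ARNTL, DBP or TEF among them. The change between plate sets passed for DBP (−1.77, adjusted p = 0.00581) and NFIL3 (1.29, adjusted p = 0.00553), and for 17.1% of all genes.

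The genes whose proteins modify or degrade PER and CRY were split between both directions. Of 20 listed 19 were tested, 6 rose, 7 fell and 6 did not pass, with a median of −0.11. These are near the values over all genes, of which 22.4% rose and 37.3% fell with a median of −0.12. DDB1, a subunit of a ubiquitin ligase that takes up CRY1, rose by 0.68 (SE 0.11), the kinase gene GSK3B by 0.49 (SE 0.11) and FBXW11, a ligase subunit that binds phosphorylated PER, by 0.43 (SE 0.08). TIMELESS fell by 1.24 (SE 0.15), the deubiquitinase gene USP2 fell by 0.71 (SE 0.15) and WDR5, a partner of PER complexes, fell by 0.47 (SE 0.10). USP2 was a low transcript, whose acid mean of 0.668 FPKM lay under the filter level of 1 FPKM. Its neutral mean was 1.83 FPKM. CSNK1D and CSNK1E, the main PER kinases, had differences of −0.06 and 0.30, and neither passed. With correction for GC content, 8 rose and 5 fell, where 3726 of all 11815 genes rose and 3828 fell. CSNK1E then passed (0.35, adjusted p = 0.00848), and the difference of CSNK1D was 0.00. CSNK1D passed as lower without the hours of the 6 libraries (−0.28, adjusted p = 0.0424).

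Genes of glucocorticoid and cAMP signalling, 2 inputs that also act on PER1, were listed with it. Of 14 listed 12 were tested, 7 rose, 3 fell and 2 did not pass, with a median of 1.09. Over all genes 22.4% rose and 37.3% fell, with a median of −0.12. The glucocorticoid target TSC22D3 rose by 4.00 (SE 0.38), the phosphatase gene DUSP1 by 2.45 (SE 0.15) and the orphan receptor gene NR4A2 by 1.99 (SE 0.16). NR4A2 rose from a low level, with a neutral mean of 0.858 FPKM, under the filter level, and an acid mean of 7.04 FPKM. The cAMP-responsive repressor gene CREM fell by 0.89 (SE 0.13), the glucocorticoid target FKBP5 fell by 0.78 (SE 0.15) and CREB1 fell by 0.23 (SE 0.10). NR3C1, the glucocorticoid receptor gene, had a difference of 0.00. The call of CREB1 was lost with upper-quartile scaling, quantile normalization and correction for GC content (adjusted p from 0.107 to 0.501). SIK1 and ZBTB16 lay below the filter, which takes the mean over both media. The acid mean of ZBTB16 was 1.27 FPKM and its neutral mean 0.106 FPKM, and this difference is not among the calls.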

How the data were processed

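Polyadenylated RNA of U2OS cells was sequenced from 26 libraries, 13 per medium, with a stranded kit, per the labels' protocols. The authors deposited 1 table of FPKM values for 19806 gene rows. The tools were STAR and Cufflinks on hg38, per the submitters' processing notes. Not given in the sources used here are their versions, the annotation and the use of strand. For symbols on several rows the row with the highest mean was kept. From the FPKM, log2(FPKM + 1) was tested with limma 3.58.1 in R 4.3.3 (trend in the mean, Benjamini-Hochberg over all 11838 genes that averaged 1 FPKM or more, threshold 0.05). The steps were tested on simulated data.

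Both media of an hour were seeded, treated and harvested together, per the labels' protocols, so the hour was the block. Deviations from the group means at the same hour correlated across genes at −0.51 to 0.42, above 0.1 at 4 of 13 hours, and the pairing therefore rests on the protocol. Depth was estimated from 1808 genes with 1 transcript. Between 86.9% and 93.8% of values up to 3.5 fragments lay within 0.1 of a whole number, and no count test was run. Correction for GC content subtracted a smooth curve of each library's deviations on transcript GC content (known for 99.8% of genes tested). Each hour and medium had 1 library, so a single value carries no error of its own.

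The genes and lists were chosen with earlier results of these data known. Named were all listed clock genes, up to 3 genes per direction of the other lists, the 3 genes most like each repressor over all libraries and the 2 most like it at pH 7.4, chosen by the highest Pearson r. CSNK1D, CSNK1E and NR3C1 were named outside this rule, after their values were seen, and a few listed genes are not reported here. Alternatives covered the block, pseudocounts, filters, scalings, GC correction, left-out hours, periods and trends.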

Additional observations from a re-analysis of the deposited data

How the results depend on the processing

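Over the course, the mean differences of PER1 and CRY2 kept direction and call under all alternatives run, at 1.60 to 2.20 and 0.76 to 1.28. With single hours left out they lay at 1.88 to 2.24 and 0.98 to 1.26, and 4 of 5 genes were called throughout. Within the plate sets some of their calls were lost, as given below. Alternatives of GC correction and left-out libraries for the 2 plate sets and the pairs were chosen after seeing the data. With no replicate block, 4 of 5 genes passed again, with an adjusted p of 0.0120 for PER2 and 0.316 for PER3, and 7177 genes were called in place of 7066, so the block changed no call of the 5. Quantile normalization and GC correction moved the median difference of all genes from −0.12 to −0.02 and −0.01 and the share of higher calls from 37.5% to 48.1% and 49.3%. A minimum mean of 5 FPKM gave no value for PER2.

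The exceptions follow, and their cause was not tested. PER2 lost its call without the 4 libraries (0.57), without the 6 (0.40) and within 28 to 52 h (0.38), and CRY1 without the 6 (0.89). PER3 passed within 4 to 24 h (1.04) and had the opposite sign within 28 to 52 h (−0.31). Without the 6, 2 of 5 genes passed over the course and 1 within 28 to 52 h, and 6283 and 6478 of all 11838 genes. Without the 4 or the 6, 0 of 5 passed within 4 to 24 h, where 3 hours were left, and 1340 and 1242 of all genes in place of 4730. Within 28 to 52 h PER2 had −0.018 without the 6. For the change between plate sets 1 of 5 passed after GC correction and 0 to 1 with single hours left out. PER1 turned to 0.79 without the 4 and 0.18 without the 6. With single hours left out PER1 ran from −0.74 to 0.0886, and CRY2 from −0.48 to 0.20. All genes called went from 2025 to 699 without the 4 and 2 without the 6.

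For the 24 h wave at pH 7.4, 0 of 5 passed with no trend, a period of 22 h, each medium alone, quantile normalization or without the 4, and 0 to 1 with single hours left out. Over all genes 5 were called, 8 at 26 h, 0 with no trend and at 22 h, and 2 with each medium alone, without the 4, or without 8, 20 or 24 h. For the difference of waves 2 of 5 passed at 26 h and 0 to 1 with single hours left out. Over all genes 2 were called, 11 at 26 h, 0 at 22 h, 6 without 52 h, and 1 after GC correction or without the 4. Of the pairs, 6 of 10 passed, 7 under each of 3 alternatives and 5 to 7 with single hours left out. PER2 minus CRY1 turned to 0.11 at a pseudocount of 0.1, where PER2 minus CRY2 was −0.0113. CRY1 minus CRY2 turned to 0.0843 after GC correction, and lay at −0.11 to 0.0903 with single hours left out. Depth limits PER2 most, at an estimated 29 fragments in its lowest library.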
